A study of Drosophila melanogaster with 3 samples.

Results

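The genes described here are 10 core cell cycle genes of Drosophila melanogaster, of 13945 protein-coding genes on the 6 large chromosome arms. They were taken as a fixed list of names: the cyclins CycA, CycB, CycB3, CycD and CycE, the cyclin-dependent kinases Cdk1 and Cdk2, the transcription factors E2f1 and E2f2, and Dp, the partner of both. Their loci were searched for binding of CG12942, which the annotation lists by this number alone. Chromatin from whole embryos was immunoprecipitated and sequenced (ChIP-seq), with both sexes pooled and ages from 0 to 24 hours. The embryos came from a transgenic line in which CG12942 carries green fluorescent protein at its C terminus, and the antibody recognised the fluorescent protein. All 3 libraries belonged to 1 group of biological replicates, each from its own biosample, so no other genotype, age or treatment was compared, and no control library was analysed here.

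Cyclins bind and switch on cyclin-dependent kinases, which drive a cell through DNA replication and mitosis. Cyclin E with Cdk2 acts at the start of S phase, while cyclins A, B and B3 with Cdk1 act at mitosis. E2F proteins bind DNA together with Dp and control genes for S phase: E2f1 mainly activates them and E2f2 mainly represses them. In the fly embryo the first cycles run on maternal products, and later cycles come to depend on zygotic control.

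The authors' peak lists on the dm6 build give, for each peak, a summit, the base of highest signal, and a signal value from their peak caller. The replicate lists held 30000, 30000 and 27869 peaks on these arms. They are relaxed lists that include background, and so is the list called on the pooled replicates, with 27271 peaks. The optimal list held 3844 peaks, with signals from 78.9 to 1897 and a median of 125. It was derived by IDR, a procedure that weighs how alike peaks rank between replicates. Each optimal summit in these loci had the same signal and rank in the pooled list, down to rank 3631. An optimal summit here is thus a strong pooled one, and not by itself a sign that the replicates agree on that peak. The lists carry no read totals. Library depth is therefore unknown, and signals were compared only within a list. A promoter summit is one within 500 bp of an annotated start of a protein-coding transcript, and negative distances lie upstream of the start.

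Sequences under some of the promoter summits are shown first, to set the strong and weak ones side by side. CycE carried a pair of strong summits in an A and T rich intron. The Cdk1 summit lay between 2 genes that point away from each other, and the E2f2 summit lay at the start of its shorter transcript. CycA, Cdk2 and CycB3 had only weak summits, with known promoter elements in them. The summits of Dp and E2f1 are not shown, so the choice does not stand for all strong and weak summits. The strongest Dp summit had 46.5% G and C in its window of 101 bp and none of the elements searched. The weak E2f1 summit had 20.8% G and C and only the TATA box letters. All read 5′ to 3′ along the gene from the RefSeq dm6 genome sequence. For CycA and CycB3 the untranslated bases of the window are left out, and for E2f2 only 30 bases around the summit are given. Capitals mark matches on either strand to the elements searched: TATCGATA (the DNA replication-related element, DRE), CGATA (the core of the BEAF-32 site, which each DRE also holds on both strands), GGTCACAC (the core of Motif 1, a core promoter element of housekeeping genes) and TATAAA (the TATA box).
CycE, upstream of the second start, chr2L:15746996-15747295, minus strand, summits at bases 50 and 250: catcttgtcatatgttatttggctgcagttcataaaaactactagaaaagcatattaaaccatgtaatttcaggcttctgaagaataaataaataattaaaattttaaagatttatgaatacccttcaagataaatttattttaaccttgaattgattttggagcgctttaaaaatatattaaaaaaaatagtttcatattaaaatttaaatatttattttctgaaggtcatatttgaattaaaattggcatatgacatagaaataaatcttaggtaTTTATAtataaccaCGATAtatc
Cdk1, chr2L:10386416-10386516, minus strand, summit at base 51: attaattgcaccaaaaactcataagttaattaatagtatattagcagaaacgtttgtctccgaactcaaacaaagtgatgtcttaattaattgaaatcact
E2f2, chr2L:21156272-21156301, minus strand, summit at base 15: cgcaagcatcgattaatcgatttacTATCG
CycA, bases upstream of the start only, chr3L:11833579-11833615, minus strand: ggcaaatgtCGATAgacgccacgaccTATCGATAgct
Cdk2, chr3R:20735495-20735595, plus strand, summit at base 51: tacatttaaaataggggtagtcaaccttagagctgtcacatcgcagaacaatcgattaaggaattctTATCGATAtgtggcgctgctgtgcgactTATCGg
CycB3, chr3R:24870817-24870889, minus strand, summit at base 51: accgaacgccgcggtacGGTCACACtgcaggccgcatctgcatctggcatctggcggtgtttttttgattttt

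At the promoters, 4 of the 10 genes had an optimal summit: CycE, Cdk1, E2f2 and Dp. Of all protein-coding genes, 2674 of 13945 did, which is 19.2%. Dp had 3 such summits, and the other 3 genes had 1 each. Only 20 genes in the genome, or 0.143%, had 3 or more optimal promoter summits, and Dp is the 1 member among them; its 3 annotated starts give it more promoter windows than a gene with 1 start has. With the gene body and 5 kb on each side added, 6 of the 10 genes had an optimal summit, with CycB and E2f1 as the additions, against 6361 of all genes, or 45.6%. In the relaxed pooled list, 8 of the 10 had a promoter summit, all but CycB and CycD, against 7111 of all genes, or 51.0%.

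**Figure D1:**
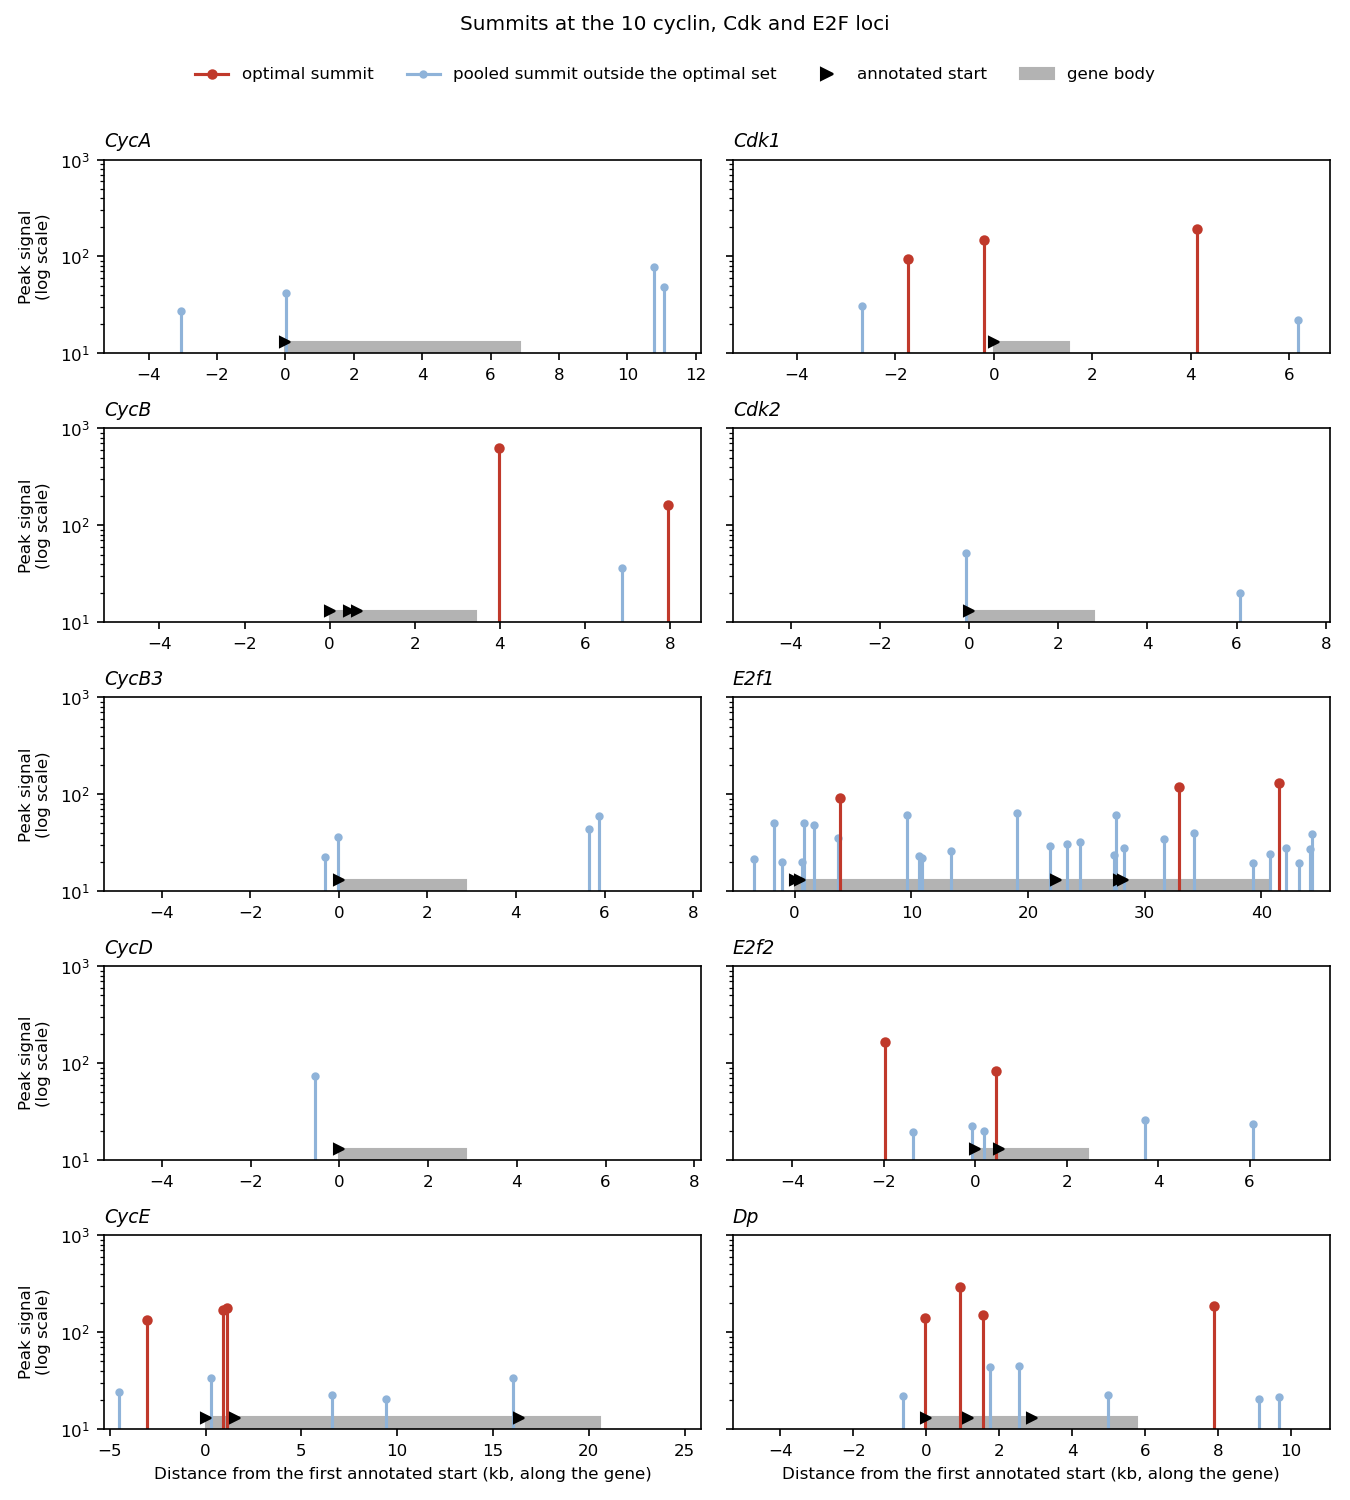
Summits of the optimal list (red) and of the pooled list outside the optimal set (blue) at each of the 10 genes, by distance from the first annotated start in kb along the gene (x) and signal on a log scale (y); triangles are annotated starts and grey bars gene bodies. CycA, CycB3, CycD and Cdk2 had no red summit, and the tallest of all, with a signal of 632, stood past the 3′ end of CycB.

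The replicates taken alone agree on 3 of these genes. A replicate summit lay within 500 bp of a start in every replicate at 7 of the 10 genes, against 4683 of all genes, or 33.6%. Both counts take in weak summits of the relaxed lists, such as those in replicate 3 at CycB3 (percentile 7.85) and Cdk2 (20.5). When each replicate list was reduced to its strongest 3844 peaks, the size of the optimal set, 3 of the 10 genes had such a summit in every replicate (CycE, Cdk1 and Dp), against 1863 of all genes, or 13.4%. Each replicate added 1 gene of its own: E2f2 in replicate 1, E2f1 in replicate 2 and CycD in replicate 3.

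Across the loci there were 17 optimal summits: 6 at promoters of the genes, 3 in gene bodies and 8 outside the gene but within 5 kb. Each of the 17 had a summit within 200 bp in all 3 replicates, and 14 were among the strongest 3844 peaks of every replicate. Of all 3844 optimal peaks, 2441 had a summit within 200 bp among the strongest 3844 of every replicate. For 98.3% of all genes with an optimal promoter summit, the strongest pooled promoter summit was matched in all 3 replicates. Of the 8 outside the gene, 7 lay within 500 bp of a start of another gene. The pooled list held 73 summits in the same loci, 21 of them at promoters. These genes have 32 protein-coding transcripts from 21 distinct starts, of which 6 had an optimal summit and 16 a pooled summit within 500 bp. No share over all genes was computed for the counts by position or by start in these loci.

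Among the cyclins named at the outset, CycE was the 1 gene with an optimal promoter summit. CycE (FBgn0010382, chr2L:15727581-15748150, minus strand) encodes the cyclin of S phase entry and has 3 starts. The optimal summit belonged to start 2, lying 436 bp upstream of it inside an intron of the transcripts from start 1, with a signal of 178 and rank 1059 of the 3844. Its signal was 58.2 in replicate 1, 51.1 in replicate 2 and 75.3 in replicate 3, which placed it at ranks 1361, 1147 and 729 of those lists. All 3 values lay within the strongest 3844 peaks. A second intron summit, 636 bp upstream of start 2 and so just outside the promoter window, had a signal of 170 and ranked 2769, 1330 and 1356 in the replicates. These are the summits just inside and just outside the window of 500 bp for the optimal list.

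The other starts of CycE had little signal. Start 1, which lies 1540 bp upstream of start 2, had a pooled summit of signal 33.6 at 261 bp downstream, with a replicate summit within 500 bp in replicate 1 alone. Start 3, which opens a transcript for a shorter protein of 602 residues against 709 to 712 from start 2, had a pooled summit of 33.9 at 320 bp upstream, with a replicate summit in replicate 3 alone. One more optimal summit near CycE, of signal 133, lay 3039 bp upstream of start 1 and 111 bp upstream of the start of ND-B17, a subunit of mitochondrial complex I.

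CycB had no optimal or pooled promoter summit, yet its locus held the strongest summit of all 10 genes. CycB (FBgn0000405, chr2R:22803521-22806948, minus strand) encodes a mitotic cyclin. The summit lay 561 bp past the 3′ end of the gene, in the intergenic stretch between the 3′ ends of CycB and blw, with a signal of 632 and rank 57 of the 3844. Its signals in the replicates were 235, 185 and 202, at ranks 48, 62 and 80. The mean percentile was 99.8 ± 0.0641 (SD, n = 3), where the percentile is the percent of peaks in a replicate list with the same or a lower signal. The nearest protein-coding start was start 3 of CycB, 3343 bp away. Of all optimal summits, 917 of 3844 (23.9%) were farther than 3000 bp from a start, and of the strongest 100 there were 13.

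At the starts of CycB themselves, replicate 1 had no summit within 500 bp. Replicate 2 had a summit of signal 7.98 at 150 bp upstream of start 1, rank 29023 of 30000, and replicate 3 one of 15.1 at 106 bp upstream, rank 8464. The one in replicate 2 is near the floor of its list, at percentile 3.26, and the one in replicate 3 is at percentile 69.6. A second optimal summit of the locus, of signal 163, lay 4527 bp past the gene and 105 bp upstream of the start of blw, the α subunit of mitochondrial ATP synthase. It was the last summit inside the limit of 5 kb; the first outside it, near E2f2, lay at 5025 bp with a signal of 100.4.

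CycA, CycB3 and CycD had no optimal summit in their loci. CycA (FBgn0000404, chr3L:11826719-11833578, minus strand) encodes a cyclin used in S phase and mitosis. Its pooled summit lay 13 bp downstream of its start with a signal of 42.2, and replicates 1 and 2 had it at ranks 6031 and 14952, with no summit within 500 bp in replicate 3. CycB3 (FBgn0015625, chr3R:24867934-24870816, minus strand), a cyclin of late mitosis, had a pooled summit 23 bp upstream of its start with a signal of 36.6. Replicates 1 and 2 had it at ranks 11499 and 10071, while the summit in replicate 3 was elsewhere, 322 bp upstream, at rank 25682. Both genes were thus found at the start itself in 2 of 3 replicates. The percentiles in replicates 1 and 2 were 79.9 and 50.2 for CycA, and 61.7 and 66.4 for CycB3.

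CycD (FBgn0010315, chrX:15906822-15909676, minus strand), the cyclin that partners Cdk4 in growth control, sat just beyond the window. Its pooled summit lay 550 bp upstream of the start with a signal of 73.5 and rank 4167 of 27271, the nearest pooled summit outside 500 bp; the nearest inside was at E2f1, 476 bp away, with a signal of 29.2. In replicate 2 a summit lay 324 bp upstream, with a signal of 19.8 and rank 5084, and in replicate 3 one lay 349 bp upstream, with a signal of 40.0 and rank 2170. Replicate 1 had no summit within 500 bp of the start, but had one of signal 30.3 within 200 bp of the pooled summit. Such a match to the pooled summit was present in every replicate, at ranks 4189, 10857 and 3743.

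Of the 2 kinases, Cdk1 had an optimal promoter summit and Cdk2 did not. Cdk1 (FBgn0004106, chr2L:10384739-10386262, minus strand) is the kinase of mitosis. Its summit lay 204 bp upstream of its only start and 196 bp upstream of the start of mRpS7, a mitochondrial ribosomal protein gene on the other side of the same intergenic stretch, so a summit there cannot be assigned to either gene by position. The signal was 148 in the optimal list, rank 1470, and 45.4, 53.0 and 48.3 in the replicates, at ranks 2087, 1066 and 1634. All 3 ranks lay within the strongest 3844 peaks of their lists. Within 5 kb there were 2 more optimal summits, each at another gene's start: one of 193 at 135 bp upstream of CG5096, and one of 93.4 at 105 bp upstream of da, the fly's E protein of the basic helix-loop-helix family.

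Cdk2 (FBgn0004107, chr3R:20735623-20738414, plus strand), the partner of cyclin E, had a pooled summit 78 bp upstream of its start with a signal of 51.7 and rank 6546. The matched summits reached percentile 81.3 in replicate 1, 39.4 in replicate 2 and 20.5 in replicate 3. In replicate 2 a stronger summit, not matched, lay 227 bp downstream of the start, with a signal of 13.5 and rank 10066. Among the 6 genes matched in all 3 replicates, the spread of the matched percentiles was widest at Cdk2, with an SD of 31.1.

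Dp (FBgn0011763, chr2R:13222433-13228202, plus strand), the partner of E2F proteins, had the most optimal promoter summits of the 10 genes, and the strongest single one. The strongest lay 238 bp upstream of start 2, inside an intron of the transcript from start 1, with a signal of 291 and rank 373 of the 3844. Its replicate signals were 71.3, 101 and 120.0, at ranks 881, 272 and 266. A second summit, 391 bp downstream of start 2, had a signal of 151 and replicate ranks of 1178, 2298 and 1657. The third lay at start 1, 30 bp upstream of it, with a signal of 138 and replicate ranks of 1316, 3494 and 1574. All 9 replicate values were within the strongest 3844 peaks.

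The summit at start 1 of Dp was shared with Fsn, an F-box protein gene that runs the other way: it lay in the 5′ UTR of Fsn, 56 bp downstream of one Fsn start and 65 bp upstream of another. The pair at start 2 had no start of another gene within 500 bp. Start 3 had no optimal summit, and its pooled summit of 44.7 at 340 bp upstream had replicate ranks of 6516 and 5640 in replicates 1 and 2, with none within 500 bp in replicate 3. The 3 starts open transcripts for proteins of 445, 417 and 441 residues. One more optimal summit in the locus, of signal 186, lay 2115 bp past the gene, 83 bp upstream of Pex13 and 266 bp upstream of fsd.

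E2f2 (FBgn0024371, chr2L:21154293-21156749, minus strand) had the weakest of the optimal promoter summits described here. It lay 55 bp upstream of start 2, 462 bp downstream of start 1 in the 5′ UTR of the longer transcript, and 1 bp upstream of the start of Mpp6, a neighbour that runs the other way. Its signal of 82.2 had rank 3631 of 3844, close to the end of the list. The replicate signals were 44.7, 19.5 and 18.1, at ranks 2144, 5234 and 6385, so replicate 1 was the 1 replicate in which the summit was among the strongest 3844. Both starts encode the same length of protein, 370 residues. The other optimal summit in the locus, of signal 165, lay 1963 bp upstream of start 1 at the starts of Coq3 and Pld3.

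E2f1 (FBgn0011766, chr3R:21620304-21660871, minus strand) had no optimal promoter summit at any of its 5 starts, although its locus held 29 of the 73 pooled summits. It is also the longest of the 10 genes, at 40568 bp. The strongest pooled promoter summit lay 224 bp upstream of start 4, with a signal of 61.7, rank 5268, and replicate ranks of 6099, 4427 and 8391. In replicate 2 a stronger one lay 382 bp downstream of start 2, with a signal of 25.1 and rank 3535. Start 1 had no pooled summit, and starts 3 and 5 had pooled summits of 29.2 and 27.8.

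Inside the introns of E2f1 there were 2 optimal summits far from its starts. One lay 4758 bp downstream of start 5 with a signal of 118 and replicate ranks of 1525, 1823 and 5590. The other lay 3481 bp downstream of start 2 with a signal of 91.0 and replicate ranks of 3324, 2194 and 3605. The latter was among the strongest 3844 in every replicate, the former in 2 of 3. Another optimal summit, of signal 130, lay 899 bp past the gene and 84 bp upstream of a start of InR, the insulin receptor gene.

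The genes were then placed in order by the percentile of the replicate peak that matched, within 200 bp, each gene's strongest pooled promoter summit. Dp came first at 98.4 ± 1.16 (SD, n = 3), then CycE at 96.3 ± 0.971, Cdk1 at 94.5 ± 1.74, E2f2 at 84.2 ± 8.0, E2f1 at 78.3 ± 7.77 and Cdk2 at 47.1 ± 31.1. CycA and CycB3 were matched in 2 replicates, at 79.9 and 50.2 for CycA and at 61.7 and 66.4 for CycB3. CycB and CycD had no pooled promoter summit to match. Percentiles are of relaxed lists, so a value in the middle of a list can be background.

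Neighbours in this order were compared by an exact sign permutation test over the replicates, two-sided, which with 3 replicates cannot go below p = 0.25. The pairs and their direction came from the same percentiles, so the test cannot show whether the order holds. Dp was higher than CycE in 3 of 3 replicates, by 2.06 points (exact p = 0.25, 0.5 after Benjamini-Hochberg adjustment over the 5 pairs). Cdk1 was higher than E2f2 in 3 of 3, by 10.4 points (exact p = 0.25, adjusted 0.5). For CycE over Cdk1, E2f2 over E2f1 and E2f1 over Cdk2 the differences were 1.80, 5.90 and 31.2 points, each higher in 2 of 3 replicates (exact p = 0.5, adjusted 0.5). No neighbouring pair passed the threshold of 0.05, which this test cannot reach with 3 replicates.

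**Figure D2:**
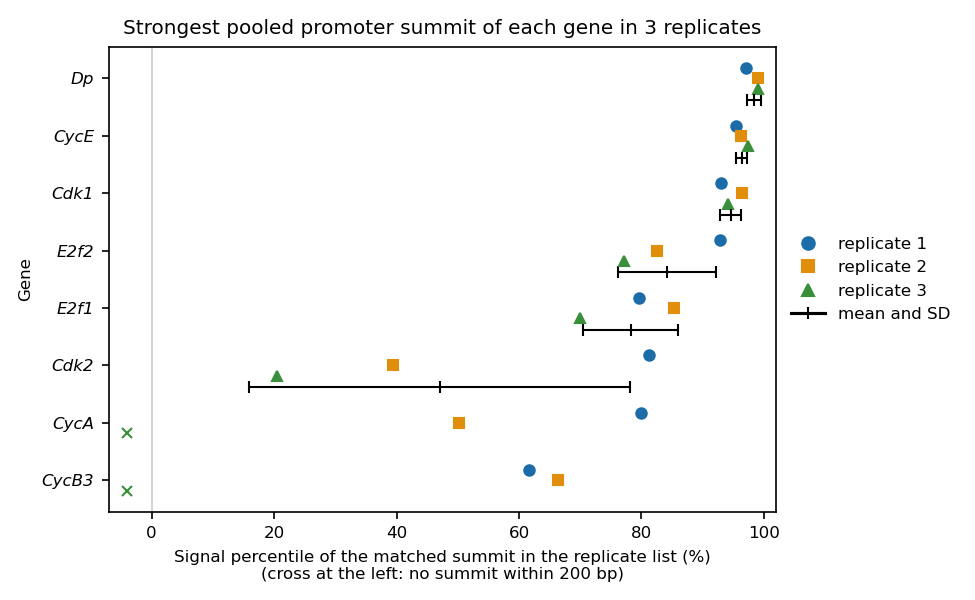
Percentile, within each replicate list, of the peak that matched the gene's strongest pooled promoter summit (x, percent of peaks at the same or a lower signal), for the 8 genes with such a summit; points are replicates, black ticks and bars the mean and SD over 3 replicates, and crosses replicates without a match. Dp, CycE and Cdk1 stayed above 93.0 in every replicate, while Cdk2 ran from 20.5 to 81.3.

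As a group, the genes with promoter summits lay near the level of all genes. The median percentile of the strongest pooled promoter summit was 83.7 over the 8 genes and 79.0 over all 7111 genes with one. A match in all 3 replicates was found for 6 of the 8 (75%) and for 58.2% of all. Among genes with an optimal promoter summit, the median was 95.4 over the 4 genes and 94.3 over all 2674. Optimal summits are strong in the pooled list, so both of these medians are high by selection and their likeness says little. The genes whose replicate percentiles came nearest to those of Dp, of 2627 compared, were CG43293 and D19B, which share a single summit (Euclidean distance 0.130 percentile points), and CG12099 (0.143).

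The members' summits were compared with all 2008 optimal promoter summits for strength and position. The strongest Dp summit was above 87.5% of them in signal, the CycE summit above 67.5%, the Cdk1 summit above 56.4% and the E2f2 summit above 4.03%. The other Dp summits were above 57.5% and 52.6%. The median signal of the 2008 was 134.

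In position, the CycE summit and the downstream Dp summit lay toward the edge of the promoter window. All 2008 were chosen within 500 bp of a start, so few can lie farther out, and the shares below hold for that window only. The median of the 2008 was 106 bp upstream of the nearest start of any protein-coding gene, and 86.7% lay upstream. Distances of the members' summits were taken to the nearest start of the member itself, which differs where a neighbour is closer. The E2f2 summit lay 1 bp from the start of Mpp6, and the Cdk1 summit 196 bp from that of mRpS7. Only 2.44% lay farther from their start than the CycE summit and 5.38% farther than the Dp summit at 391 bp downstream. The Cdk1 summit and the strongest Dp summit had 24.4% and 18.7% farther away, while the E2f2 summit and the Dp summit at start 1 were among the closest, with 79.6% and 90.7% farther away.

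**Figure D3:**
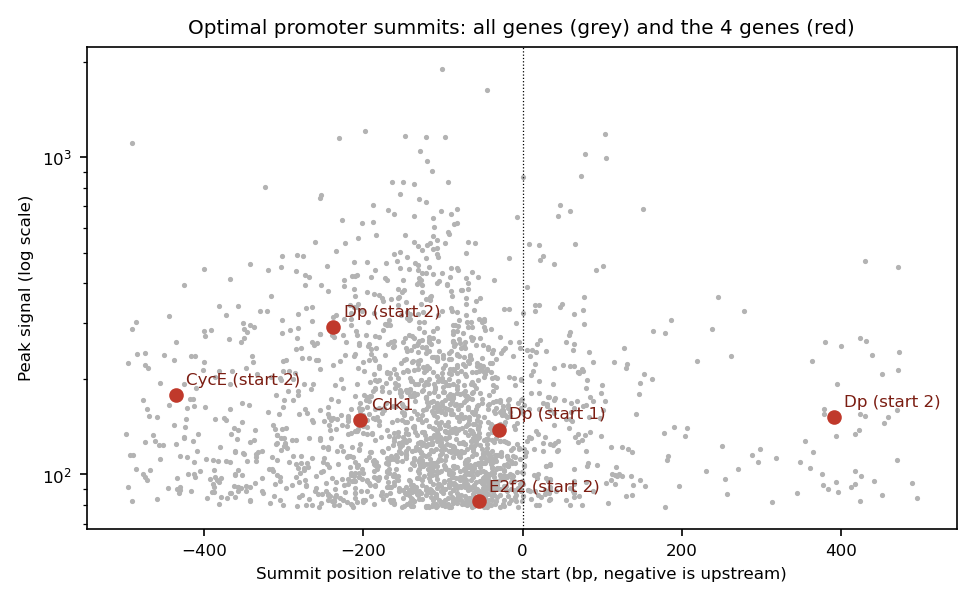
All 2008 optimal promoter summits (grey) and the 6 of CycE, Cdk1, E2f2 and Dp (red), by position relative to the start in bp (x) and peak signal on a log scale (y). Grey positions are relative to the nearest start of any protein-coding gene, and red ones to the nearest start of the named gene. The red points range from 436 bp upstream for CycE to 391 bp downstream for Dp, and from a signal of 82.2 for E2f2 to 291 for Dp.

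The base composition under the summits also ranged widely. In a window of 101 bp around the summit, G and C made up 19.8% at CycE, 27.7% at Cdk1 and 43.6% at E2f2. At Dp they made up 51.5%, 46.5% and 37.6% in order along the gene. Over the 2008 optimal promoter summits the median was 33.7% with quartiles of 27.7% and 41.6%, and the 10th percentile was 22.8%, so CycE lay below it.

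No single searched element was common to the summits of these genes. In the same windows, the BEAF-32 core CGATA was found at CycE, E2f2 and the first Dp summit, 3 of 6, against 23.4% of all 2008. The TATA box letters TATAAA were found at CycE, against 21.3%, and the E-box CAGCTG at the first Dp summit, against 5.13%. None of the 6 held the DRE, found in 3.39% of the 2008, Motif 1 (1.69%) or GAGAG, the letters of the GAGA element (8.17%). Any of 4 E2F-type sites, TTTCCCGC, TTTGGCGC, TTTCGCGC or TTTGCCGC, was found in 26 of the 2008 windows (1.29%) and in 0 of the 6.

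The strongest pooled promoter summits of the 8 genes, which include those of CycE, Cdk1, E2f2 and Dp, held some of the same elements and some others. The BEAF-32 core was at CycA, Cdk2, CycE and E2f2, 4 of 8, against 24.5% of such summits over all genes. TATAAA was at CycE and E2f1, against 18.0%. The DRE was in the windows of CycA and Cdk2, 2 of 8 genes, against 3.80% of the strongest pooled promoter summits of 7111 genes. CycB3 held Motif 1, against 3.07%, and GAGAG, against 9.66%, the latter outside the stretch shown above. E2F-type sites were found in 0 of the 8, against 1.63%. In the stretch from 250 bases before to 50 after a start, wherever the summits lay, an E2F-type site was present at CycE, at start 2, and at CycB, at start 3, against 1216 of all genes (8.72%). The DRE was present there at CycA and Cdk2, against 1418 genes (10.2%), and Motif 1 at CycB and CycB3, against 8.71% of all genes.

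Other genes of the cell cycle, grouped by role, were set beside the 10. Of 46 such genes, 9 (19.6%) had an optimal promoter summit, close to the 19.2% of all genes. Among other cyclin, Cdk and Cks genes there were 4 of 16: CycH and Cdk7, which form the Cdk-activating kinase, had signals of 87.8 and 95.0, Cdk8 of the Mediator complex 95.5, and Cdk12, a kinase of transcribing RNA polymerase II, 193. The Cdk7 summit lay also at the start of snf and the Cdk12 summit at that of SAK.

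The other lists held regulators and targets. Of 6 Cdk inhibitors, phosphatases and inhibitory kinases (dap, rux, stg, twe, Wee1 and Myt1) 0 had an optimal promoter summit, and 4 had a pooled one. Of 8 retinoblastoma and Myb-MuvB genes, which encode partners and repressors of E2F, 1 did: Rbf2, with a signal of 212 at a summit shared with CG32856. Of 9 genes for the destruction of cyclins and E2F, 1 did: Cul1, a cullin of the SCF ubiquitin ligase, with 87.4 at a summit shared with CG12159. Of 8 textbook E2F target genes 3 did. Each of these summits also lay within 500 bp of a start of another gene. RnrS, a subunit of ribonucleotide reductase, had 296 at a summit shared with CG34231, dup, the replication licensing factor Cdt1, had 169 at a summit shared with SRPK, and Mcm2, a subunit of the replicative helicase, had 166 at a summit shared with RPA1. None of these list counts was tested against the 19.2% of all genes.

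**Figure D4:**
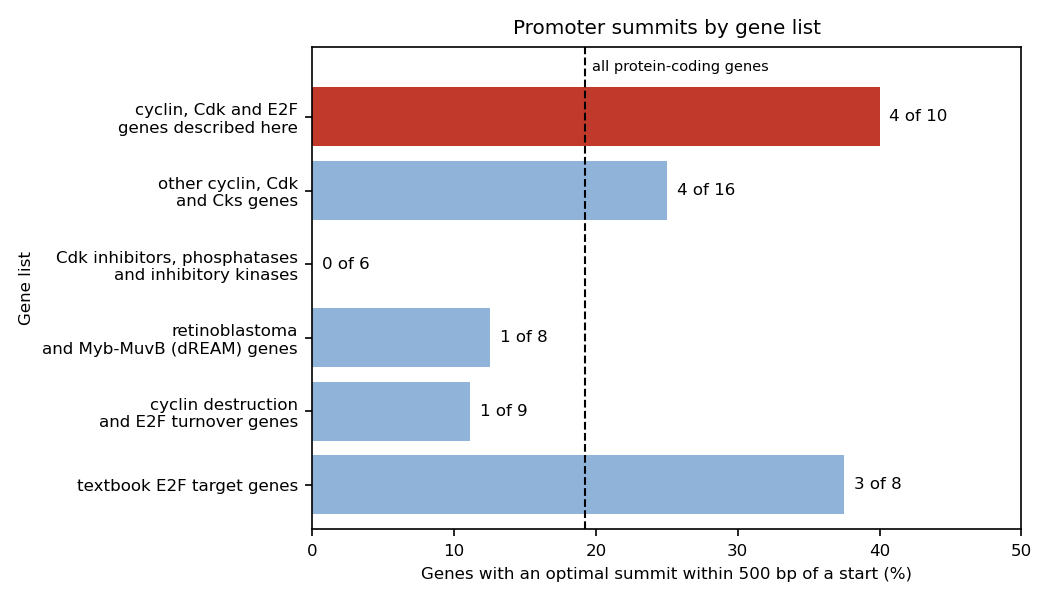
Percent of genes with an optimal summit within 500 bp of a start (x), for the 10 genes described here (red) and 5 lists of other cell cycle genes by role (blue), with the count beside each bar; the dashed line is the 19.2% of all protein-coding genes. Lists are small: 4 of 10, 4 of 16, 0 of 6, 1 of 8, 1 of 9 and 3 of 8 genes.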

How the data were processed

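ChIP-seq peak lists of 3 biological replicates were used, in 1 group, with replicate numbers from the labels. Per the deposited file listings, the authors called peaks on each library against a control alignment and on all 3 together. They derived the optimal list by IDR, which weighs how alike peaks rank between replicates. Neither aligner nor peak caller is given in the sources used here. The signal value per peak is the authors' and was used only to rank and describe peaks within a list. The deposited −log10 q values served for an alternative ranking. Lists on dm3 (5) were not used. Depth is unknown, so no counting interval is given.

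Summits were set against Ensembl release 115 starts of protein-coding transcripts on 2L, 2R, 3L, 3R, 4 and X, with the RefSeq genome of the same assembly for sequence. Summits within 200 bp were called the same. Motifs were searched on both strands within 50 bp of a summit. The percentile is the percent of a list's peaks at the same or a lower signal. The members, gene lists and motifs were chosen with earlier results of these data known. The stretch of 250 bases before to 50 after a start was added after the data were seen. All 10 genes are named, as are listed genes with an optimal promoter summit or in counts of 5 or fewer, neighbours with a start within 500 bp of a described summit, and the 3 genes nearest to Dp. Counting was tested on simulated data: of 200 genes with a planted promoter summit, among 13945, 200 were recovered. Tables were handled with pandas 2.3.3 and numpy 2.4.6 in Python 3.11.15, tests with scipy 1.17.1 and figures with matplotlib 3.10.9.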

Additional observations from a re-analysis of the deposited data

How the results depend on the processing

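Of the 11 alternatives tried for the count of promoter summits, which include lists of single replicates in place of the optimal list, Cdk1 and Dp had a summit in all 11 and CycE in all but the window of 250 bp. E2f2 was lost among the strongest 1922 optimal peaks, among optimal peaks matched in the strongest peaks of all 3 replicates, and whenever a replicate was left out, and it was replaced by E2f1 or CycD when replicate 2 or 3 was taken alone. Leaving out each replicate gave 3 genes each time, 14.5% to 15.8% of all genes and 6 to 7 of the other cell cycle genes, which is a stricter call because summits had to be shared by the remaining pair. The 6 genes with an optimal summit in the gene body or within 5 kb stayed 6 in each of these. Among the strongest 1922 optimal peaks, 11.4% of all genes and 5 of the other cell cycle genes had a promoter summit, and 5 did among peaks matched in all 3 replicates. With 10 kb on each side CycB3 joined, making 7 genes, and in the pooled list CycD joined with a window of 1000 bp, making 9. No share over all genes was computed for the gene body or pooled alternatives, and wider settings widen the search for every gene.

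With 100 bp on each side of the summit, 5 of the 6 optimal promoter summits held at least 1 of the 10 motifs, against 3 with 50 bp. A wider window holds more letters. The share of all 2008 optimal promoter summits with at least 1 motif was not computed. In the wider window CGATA alone was in 39.4% of them and TATAAA in 36.5%. Among the strongest 3844 peaks of each replicate alone, the mean percentiles were 87.7 for Dp, 72.0 for CycE and 58.5 for Cdk1, with the order kept, and the other genes had no value because they were not found there in every replicate. Ranking by −log10 p was not run because that column holds no value. Ranking by −log10 q, chosen after seeing the data, gave 95.0 for Dp, CycE and Cdk1 alike, with ties set at the middle of their ranks: these peaks shared the highest value with 4026, 2648 and 2127 peaks in all in replicates 1, 2 and 3. No paired analysis was possible because the samples form 1 group. With 3 replicates the exact sign permutation test cannot pass the threshold of 0.05.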
